A study of Homo sapiens with 6 samples.

Results

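The genes described here encode the transcription factors and effectors of the integrated stress response: ATF3, ATF4, ATF5, DDIT3, CEBPB, CEBPG, NUPR1, TRIB3, CHAC1 and DDIT4. They were chosen by name, with results of this comparison known, and 23 of 49293 probe sets on the array named exactly 1 of these 10 genes. No probe set named one of them together with another gene. ATF3 had 7 probe sets, ATF5 had 4, and DDIT3, CEBPG, TRIB3 and CHAC1 had 2 each; ATF4, CEBPB, NUPR1 and DDIT4 had 1 each. U87, an established cell line from a human glioblastoma, was profiled with miR-151a overexpressed in 3 samples and with the control miR-NC in 3, each on its own array. The sources used here give neither the means nor the duration of overexpression, nor which arm of miR-151a was raised, and the labels name no other agent or allele for either group. Separate cultures are not stated for the replicates, so errors and p-values here cover only the variation among these arrays, part or all of which could be technical.

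In the integrated stress response, kinases that sense amino acid shortage, unfolded proteins in the endoplasmic reticulum, haem shortage or double-stranded RNA phosphorylate the translation factor eIF2. General protein synthesis then falls, while the messenger RNA of ATF4 is translated more. ATF4 binds DNA as a dimer with C/EBP proteins and raises genes of amino acid supply together with further factors, among them DDIT3 (CHOP) and ATF3, and effectors such as TRIB3 and CHAC1. Because much of the control of ATF4 and ATF5 is at translation, the level of their messenger RNA is a separate quantity from the amount of protein, which was not measured here.

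The control regions of these genes are where the transcription factors of the pathway are known to act, so the windows from 250 bases before to 50 bases after each RefSeq start were searched on both strands. RefSeq windows of the GRCh38.p14 build were matched for 9 of the 10 genes, all but NUPR1. A gene was counted for a motif when any of its windows held it. The 9 genes have 18 windows and the 27305 genes with a window have 35116. The counts of the 9 thus rest on more windows per gene than the shares of all genes. The core of the composite element bound by C/EBP and ATF dimers, TGATGNAA, was found in 3 of the 9 (ATF3, CHAC1 and CEBPG) and in 4.46% of the 27305 genes with a window. A cyclic AMP response element with 1 free base, TGACNTCA, was found in 1 of the 9 (ATF3) and in 9.21% of all genes, and the palindrome TGACGTCA in 0 of the 9 and 2.25% of all. The AP-1 element TGANTCA was found in 2 of the 9 (DDIT3 and ATF5) and in 9.37% of all genes. The endoplasmic reticulum stress response element, CCAAT and CCACG with 9 free bases between them, was in 0 of the 9 and 0.092% of all genes, and the CCAAT box in 6 of the 9 and 39.7% of all. No match of one motif overlapped a match of another in these windows. A match is a description of the letters and not a shown binding site. Of the stretches printed below, that of CEBPG lies within the RefSeq span of CEBPG itself. That of DDIT3 lies within the span of MBD6, and that of ATF5 within the spans of IL4I1 and NUP62. The stretches with a composite core, a cyclic AMP response element or an AP-1 element follow, 5′ to 3′ on the strand of the gene with the match in capitals, so that the spelling and spacing can be read.
ATF3, composite core, first base 191 bases before one of its starts, chr1:212565186-212565253, plus strand: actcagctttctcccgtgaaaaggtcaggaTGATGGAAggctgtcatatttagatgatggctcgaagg
ATF3, cyclic AMP response element, 123 bases before that start, chr1:212565254-212565321, plus strand: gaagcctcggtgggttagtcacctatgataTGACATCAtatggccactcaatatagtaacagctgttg
CHAC1, composite core read on the opposite strand, 209 bases before the start, chr15:40953232-40953299, plus strand: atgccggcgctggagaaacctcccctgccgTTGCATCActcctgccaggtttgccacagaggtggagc
CEBPG, composite core, 42 bases before one of its starts, chr19:33374060-33374089, plus strand: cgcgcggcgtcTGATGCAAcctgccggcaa
DDIT3, AP-1 element, 241 bases before one of its starts, chr12:57520738-57520764, minus strand: gcgcgcgcaTGACTCAcccacctcctc
ATF5, AP-1 element, 188 bases before one of its starts, chr19:49928707-49928735, plus strand: ggagagtgctgTGACTCAtgctggactct

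All 6 arrays had similar scales, with median probe set intensities from 57.1 to 58.6 and lower quartiles from 14.9 to 15.6, and no pair of columns held identical values. The median within-group SD over all probe sets was 0.080 on the log2 scale. Of the defining markers of U87 as a mesenchymal glioma line, VIM, CD44 and TNC lay above 98.7% or more of genes in mean level. Of the neural markers, GFAP, OLIG2, SOX2 and S100B lay below the median gene, and NES lay above 60.1% of genes. Over all 8 glial and mesenchymal markers the summed intensity ran from 28637 to 30123 with miR-151a and from 28739 to 30435 with miR-NC, a sum made up mostly of VIM. One of the 8, NES, the intermediate filament nestin, was called lower in limma, at a mean of 134 against 166 (log2 -0.31, adjusted p = 0.0079); its part in the results below was not tested. The leukocyte markers PTPRC and CD14 lay below the lower quartile of genes, and the sum over 4 leukocyte markers, nearly all of it CD68, ran from 1039 to 1128 and from 1018 to 1072. The 3 endothelial, 3 neuronal, 2 epithelial and 2 oligodendrocyte markers had 0 genes past the threshold of limma in either direction. Among all genes, 15.4% were past it. Of the neuronal markers, SNAP25 and SYT1 lay above 75.6% and 51.0% of genes in mean level, and RBFOX3 above 37.1%. For the beta-actin controls, the log2 of the 3′ reading over the 5′ reading ran from 0.27 to 0.30 with miR-151a and from 0.37 to 0.43 with miR-NC, and for GAPDH the ranges were 0.045 to 0.052 and 0.029 to 0.049. The part of this beta-actin difference in the results below was not tested.

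With miR-151a, all 23 probe sets of the 10 genes had a higher mean than with miR-NC, with a lowest difference of 0.19, a highest of 2.15 and a median of 0.73 in log2(intensity + 1). By the brightest probe set of each gene, ATF3 and NUPR1 had the largest differences, TRIB3, DDIT3 and CHAC1 came next, and ATF4 and CEBPB had the smallest; over all probe sets the lowest values were those of 2 dimmer ATF5 probe sets, 0.19 and 0.21. A Benjamini-Hochberg adjusted p under 0.05 in limma, fitted over all probe sets, was reached as higher by 21 of the 23, where 6.81% of all probe sets were called higher, and by 0 as lower, where 7.27% were called lower. All 3 miR-151a values lay above all 3 miR-NC values in 22 of the 23, against 15.3% of all probe sets. A difference of at least 2-fold was seen in 7 of the 23, against 0.321% of all. The median difference over all probe sets was -0.01. The genes were chosen with these results in view, so the counts describe the set and are no evidence for it. Without 1 sample in turn the count of 21 ran from 16 to 20, with 16 whichever miR-NC sample was left out. The 3355 probe sets called higher in all became 2227 when miR-151a replicate 3 was left out, and 2189 and 2171 when the first or second miR-NC replicate was. The 3585 called lower became 2052 and 2276 without miR-151a replicates 1 and 3 and 1893, 1959 and 2001 without miR-NC replicates 1, 2 and 3. In these bulk samples a higher level in every cell and a larger share of cells with a high level cannot be told apart.

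**Figure D1:**
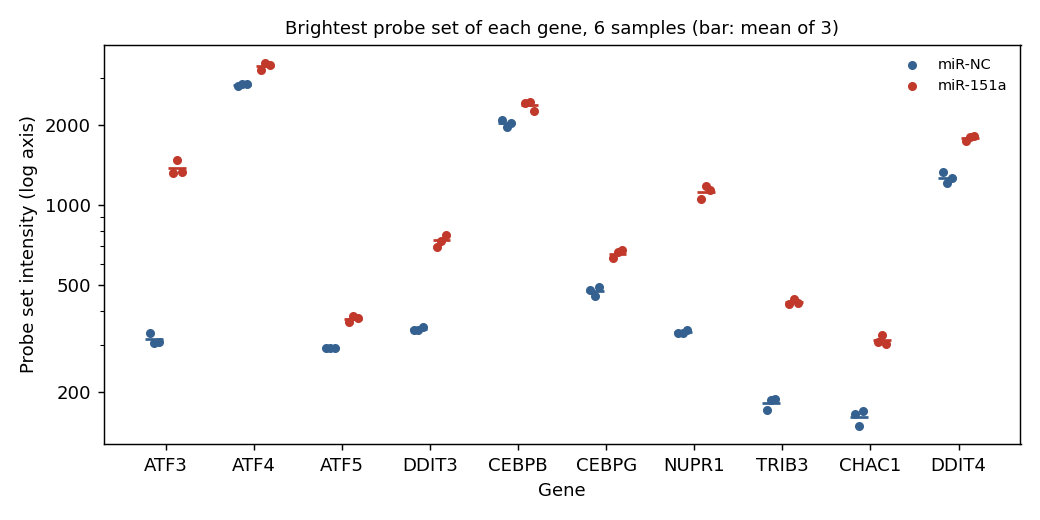
Probe set intensity (vertical log axis, deposited linear units) of the brightest probe set of each of the 10 genes in the 3 miR-NC (blue) and 3 miR-151a (red) samples, with bars at the group means. For each of these 10 probe sets every miR-151a point lies above every miR-NC point, with the widest gaps at ATF3 and NUPR1 and the narrowest at ATF4 and CEBPB.

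ATF3 (chromosome 1, 212565407 to 212620777 in GRCh38.p14) encodes a stress-induced factor of the ATF/CREB family that can repress or activate its targets. Its brightest probe set, 11719344_a_at, read 1319.8, 1469 and 1327 with miR-151a and 332, 305 and 307 with miR-NC. The lowest miR-151a sample was therefore far above the highest miR-NC sample. The mean was 1372 ± 84.2 (SD, n = 3) against 315 ± 14.9 (SD, n = 3), a 4.34-fold difference (log2 2.12, standard error 0.06, 95% interval 1.97 to 2.26). Only 4 of 18132 genes had a larger log2 difference by their brightest probe set. The probe sets 11753632_x_at, 11753631_a_at and 11719343_x_at gave log2 differences of 2.14, 2.15 and 1.98.

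The other 3 ATF3 probe sets were dim and differed less. Probe set 11742243_a_at read 31.3, 49.6 and 36.9 with miR-151a and 27.1, 27.5 and 22.7 with miR-NC. Probe set 11719342_a_at read 18.4, 27.5 and 21.0 against 14.7, 16.1 and 14.2, and 11763463_a_at read 17.0, 13.8 and 13.7 against 9.03, 10.3 and 8.26. All 3 kept the groups apart, but every one of these readings lay below the median of the arrays. Their log2 differences were 0.57, 0.53 and 0.64. The log2 gap between the brightest probe set and these 3 was wider with miR-151a than with miR-NC by 1.55, 1.59 and 1.48, with ranges that did not overlap between groups. For the 3 other bright probe sets that gap shifted by -0.02, -0.03 and 0.14, with overlapping ranges. The 11742243_a_at call was lost without miR-151a replicates 2 and 3 (limma adjusted p 0.065 and 0.089) and without miR-NC replicates 1, 2 and 3 (0.091, 0.073 and 0.13), and with all 6 samples under quantile normalization (0.060). That of 11719342_a_at was lost without miR-151a replicate 3 (0.065) and without miR-NC replicates 1, 2 and 3 (0.091, 0.052 and 0.089). With a pseudocount of 32, which shrinks the folds of dim probe sets, the log2 differences of the 3 dim ones became 0.30, 0.21 and 0.19, and those of the 4 bright ones stayed between 1.73 and 2.02.

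**Figure D2:**
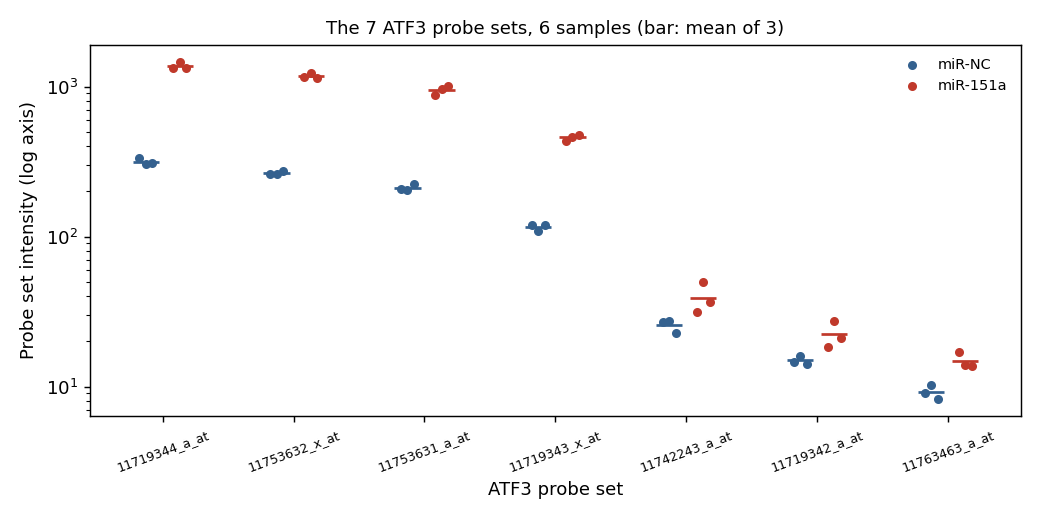
Intensity (vertical log axis, deposited linear units) of the 7 ATF3 probe sets in the 3 miR-NC (blue) and 3 miR-151a (red) samples, with bars at the group means. The 4 bright probe sets on the left have log2 differences between 1.98 and 2.15, and the 3 dim ones on the right between 0.53 and 0.64.

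NUPR1 (chromosome 16, 28532708 to 28538974) encodes a small stress-induced chromatin-associated protein. Its 1 probe set read 1056, 1179 and 1135 with miR-151a and 332, 331 and 340.1 with miR-NC. The control samples lay close together, and the groups were far apart. The mean was 1124 ± 62.2 (SD, n = 3) against 334 ± 5.01 (SD, n = 3), a 3.35-fold difference (log2 1.74, 95% interval 1.62 to 1.87). It ranked 10 among all genes by log2 difference, and no other probe set on the array can check this reading.

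DDIT3, on chromosome 12 (57516588 to 57520517), encodes CHOP, a C/EBP family factor linked to cell death under prolonged stress. Its brighter probe set, 11758347_s_at, read 699, 736 and 775 with miR-151a and 339, 340.2 and 348 with miR-NC. The mean was 737 ± 38.3 (SD, n = 3) against 343 ± 4.97 (SD, n = 3), a log2 difference of 1.10 (95% interval 0.98 to 1.23). The other, 11758198_s_at, read 558, 631 and 579 against 313, 298 and 306, a log2 difference of 0.94. Neither probe set had overlapping groups. In the RefSeq annotation the DDIT3 gene overlaps MARS1, a methionyl-tRNA synthetase gene, by 65 bases, and the gene LOC128125814 by 2769 bases. MARS1, named here after its value was seen, was higher by 0.49. Whether the probe sets lie in the shared bases was not tested.

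The other C/EBP genes among the 10 differed less than DDIT3. CEBPG (chromosome 19, 33373709 to 33382686) encodes a short C/EBP protein that dimerises with ATF4. Its probe set 11717693_at read 632, 664 and 679 with miR-151a and 482, 455 and 491 with miR-NC, a log2 difference of 0.47 (95% interval 0.34 to 0.59). Its dimmer probe set 11717694_a_at read 403, 444 and 443 against 255, 255 and 263, a larger difference of 0.73 (0.60 to 0.86). Both probe sets of this gene kept the groups apart, and the log2 gap between them did so too, at 0.58 to 0.65 with miR-151a and 0.83 to 0.92 with miR-NC. CEBPB (chromosome 20, 50190583 to 50192690), a factor of inflammatory and stress genes, read 2420.2, 2439 and 2244 with miR-151a and 2076, 1964 and 2022 with miR-NC. The mean was 2368 ± 108 (SD, n = 3) against 2021 ± 56.2 (SD, n = 3), a log2 difference of 0.23 (95% interval 0.10 to 0.35). Its call was lost without miR-151a replicates 1 and 2 (limma adjusted p 0.082 and 0.084) and without miR-NC replicates 1, 2 and 3 (0.060, 0.10 and 0.082). The antisense gene CEBPB-AS1 overlaps CEBPB by 1487 bases in RefSeq, and whether the probe set tells the strands apart was not tested.

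ATF4 and ATF5, the factors whose translation rises when eIF2 is phosphorylated, were only slightly higher at the level of messenger RNA. ATF4 (chromosome 22, 39520559 to 39522686) read 3191, 3409 and 3330.5 with miR-151a and 2798, 2831 and 2843 with miR-NC. The groups did not overlap, and the mean was 3310.0 ± 111 (SD, n = 3) against 2824 ± 23.5 (SD, n = 3), a 17.2% difference (log2 0.23, 95% interval 0.12 to 0.34). Fitted over all probe sets, the ATF4 call was lost without miR-151a replicates 2 and 3 (limma adjusted p 0.060 and 0.061). It was also lost without miR-NC replicates 1, 2 and 3 (0.066, 0.064 and 0.058). Fitted over genes, the call was lost without miR-NC replicates 1 and 2 (0.053 and 0.052) and kept without the other samples. By the maker's naming, the suffix of this probe set, 11757047_x_at, marks probes that may also match other sequences. Probe sets 11753632_x_at and 11719343_x_at of ATF3 and 11754592_x_at of ATF5 carry the same suffix. Another suffix, _s_at, is on both DDIT3 probe sets, the CEBPB probe set and 11717802_s_at of ATF5. Whether the probes of these sets also match other sequences was not tested. The brightest ATF5 probe set, 11717800_a_at, read 365, 384 and 376 with miR-151a and 292, 291 and 291 with miR-NC, a difference of 28.6% (log2 0.36, 95% interval 0.25 to 0.47). The other ATF5 probe sets gave log2 differences of 0.25, 0.21 and 0.19. Of these, 11754592_x_at did not reach the threshold though its groups were apart (limma adjusted p 0.051), and it reached it under 5 alternatives (0.022 to 0.042). Probe set 11717801_a_at did not reach it and had overlapping groups, 95.3 to 108 against 86.4 to 96.1. Probe set 11717802_s_at lost its call without miR-151a replicates 2 and 3 (limma adjusted p 0.11 for each) and without miR-NC replicates 1, 2 and 3 (0.12, 0.093 and 0.065). ATF5 (chromosome 19, 49928906 to 49933935) overlaps NUP62 and IL4I1 by 599 bases in RefSeq.

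The effectors TRIB3 and CHAC1 stood between these factors and ATF3. TRIB3 (chromosome 20, 380760 to 397559) encodes a pseudokinase that binds ATF4 and DDIT3 and holds back AKT. Its probe set 11719811_a_at read 427, 446 and 429.8 with miR-151a and 171, 186 and 187 with miR-NC. The mean was 434 ± 10.3 (SD, n = 3) against 181 ± 8.81 (SD, n = 3), a 2.39-fold difference (log2 1.26, 95% interval 1.13 to 1.38). The dimmer 11751172_a_at read 127, 167 and 134 against 72.1, 81.8 and 79.5, a log2 difference of 0.86. CHAC1 (chromosome 15, 40953471 to 40956512) encodes an enzyme that degrades glutathione. Its probe set 11722407_a_at read 307, 326 and 302 with miR-151a and 164, 149 and 170.1 with miR-NC, a 1.93-fold difference (log2 0.95, 95% interval 0.80 to 1.10). Its other probe set, 11742287_a_at, read 98.5, 98.7 and 96.2 against 48.4, 55.1 and 53.9, with a log2 difference of 0.89. The groups were apart for all 4 probe sets of these genes. DDIT4 (chromosome 10, 72273924 to 72276036), an inhibitor of the growth kinase complex mTORC1 that hypoxia and glucocorticoids also raise, read 1736, 1806 and 1818 with miR-151a and 1328, 1209 and 1265 with miR-NC. Its groups did not overlap, and its log2 difference was 0.50 (95% interval 0.37 to 0.62).

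Ordered by the log2 difference of the brightest probe set, the genes ran ATF3, NUPR1, TRIB3, DDIT3, CHAC1, DDIT4, CEBPG, ATF5, ATF4 and CEBPB. The 95% intervals of neighbours in this order were apart for ATF3 and NUPR1, for NUPR1 and TRIB3 and for CHAC1 and DDIT4, and overlapped for the other 6 pairs of neighbours. The intervals come from the same 6 samples and were not tested against each other. With 1 probe set per gene, all 10 genes passed the threshold as higher in limma, where 7.27% of 18132 genes did, and 4 were at least 2-fold higher, where 0.430% were. Over all alternatives the number that passed ran from 8 to 10, with 8 without miR-NC replicate 1 or 2.

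**Figure D3:**
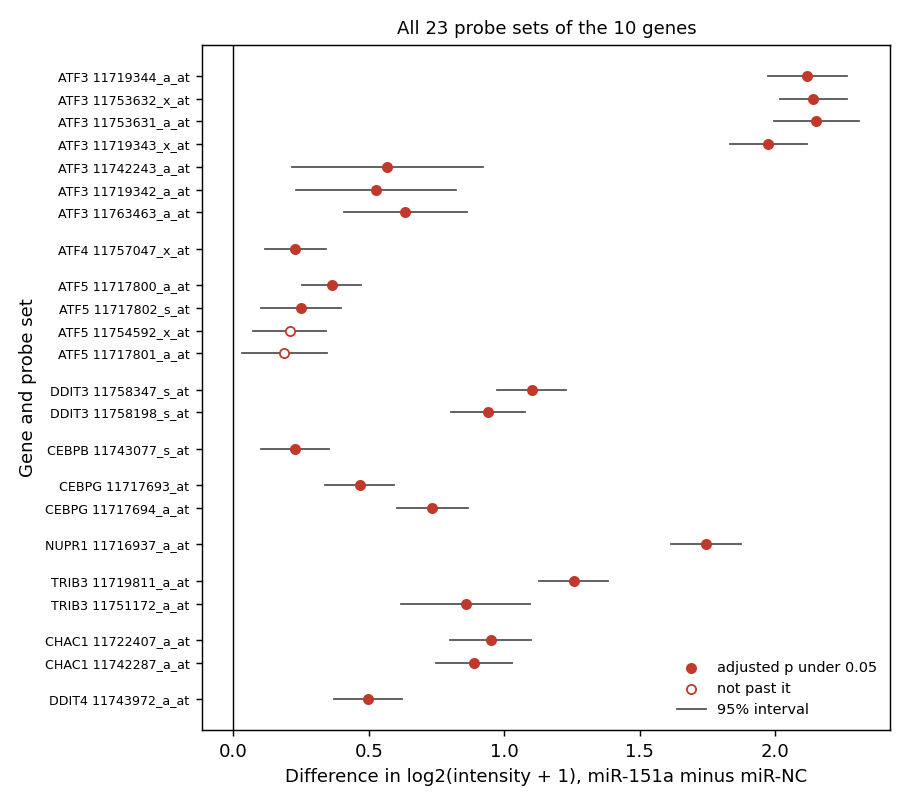
Difference in log2(intensity + 1) between miR-151a and miR-NC (horizontal axis) with its 95% interval for all 23 probe sets, grouped by gene; filled points passed an adjusted p of 0.05 in limma and open points did not. All points lie to the right of 0, and the 7 ATF3 probe sets fall into a group of 4 near 2 and a group of 3 between 0.53 and 0.64.

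Within a group the 23 probe sets did not order the samples evenly. The comparison of the groups uses the spread within each group but not the replicate numbers. In the miR-151a group, replicate 1 was the lowest sample for 17 of the 23 probe sets (73.9%) and for 39.9% of all probe sets. Replicate 2 was the highest for 14 of the 23 (60.9%) and for 35.6% of all. The median deviation of the 23 from their group mean was -0.06 in replicate 1, 0.04 in replicate 2 and 0.0049 in replicate 3, while over all probe sets it lay between -0.01 and 0.0054. In the miR-NC group, replicate 3 was the highest sample for 13 of the 23 (56.5%) against 34.4% of all, with a median deviation of 0.03. These median deviations were small beside the differences between groups for the brightest probe sets of ATF3, NUPR1, TRIB3, DDIT3 and CHAC1. The dim ATF3 probe set 11742243_a_at deviated by -0.29 and 0.36 in miR-151a replicates 1 and 2, beside a difference of 0.57. The largest single deviations, up to 0.36, were those of dim probe sets. Probe sets of 1 gene read the same RNA, so the 23 are not independent, and these counts carry no test.

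**Figure D4:**
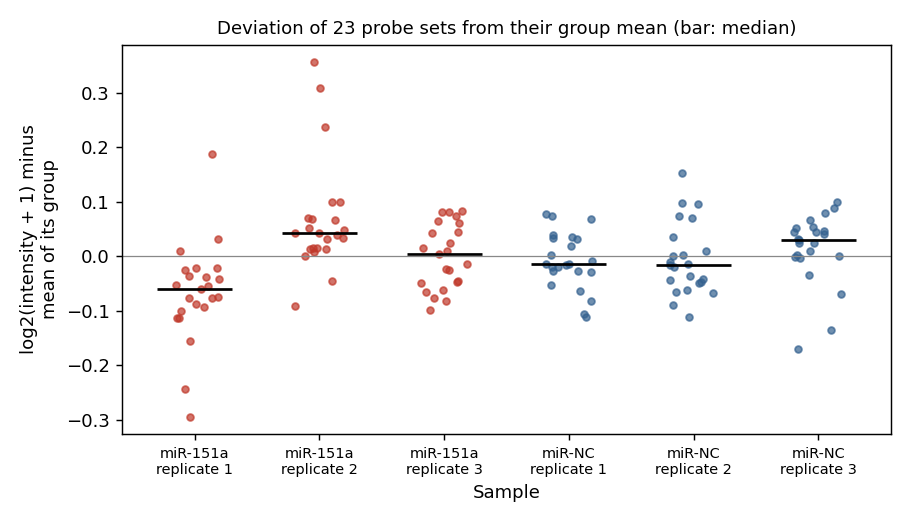
Deviation of log2(intensity + 1) from the mean of its own group (vertical axis) for the 23 probe sets in each of the 6 samples, with bars at the medians. The bar of miR-151a replicate 1 lies lowest, at -0.06, and that of miR-151a replicate 2 highest, at 0.04.

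Among other genes, those whose 6 values ran most like those of ATF3 and NUPR1 were found by the Euclidean distance between log2 values centred on each gene's mean over the 6 samples, for genes above the median level. For ATF3 these were SLC12A7 at a distance of 0.16, SPRR2D at 0.34, RAP1A and TNFAIP3 at 0.52 and SPINK1 at 0.54, with log2 differences of 2.17, 1.89, 1.74, 1.70 and 1.68. For NUPR1 they were SERPINA1 and RAP1A at 0.11, TRAF1 and CTH at 0.16 and SPINK1 at 0.17, with SERPINA1 at 1.67, TRAF1 at 1.69 and CTH at 1.69. The distance is mostly set by the size of the difference between the groups. Averaged over all probe sets of the gene, SLC12A7 was at 1.12, RAP1A at 0.41, ATF3 itself at 1.45 and NUPR1, with its 1 probe set, at 1.74, so the likeness given here is that of brightest probe sets.

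Genes of the sensors and of the phosphatase step above ATF4 were called about as often as genes in general. Of 20 genes of eIF2 kinases, eIF2 phosphatase regulators, eIF2 and eIF2B, 2 were called higher and 1 lower in limma, with a median difference of -0.03, where 7.27% and 8.11% of all genes were called and the median over all genes was -0.01; with a pseudocount of 32 the counts were 2 and 4. PPP1R15A (GADD34), the stress-induced subunit that returns eIF2 to its unphosphorylated form, read 322, 349 and 363 with miR-151a and 210.0, 224 and 225 with miR-NC, and rose by 0.65 (adjusted p = 0.00054). EIF2AK3, the kinase PERK of the endoplasmic reticulum, read 183, 179 and 179 against 235, 230.5 and 226, and fell by 0.35 with all 3 of its probe sets past the threshold (adjusted p = 0.0019). The groups overlapped for neither gene. The kinase genes EIF2AK1, EIF2AK2 and EIF2AK4 were at -0.11, -0.11 and -0.10 by their brightest probe sets (adjusted p from 0.14 to 0.18); these 3 are named after their values were seen. EIF2AK1 had 2 of 8 probe sets called lower, EIF2AK1 and EIF2AK2 passed with a pseudocount of 32 (0.036 and 0.048), and EIF2AK4 was at 0.03 averaged over its 2 probe sets. EIF2S2, an eIF2 subunit, was the other gene called higher, at 0.21 (adjusted p = 0.041). It did not pass when miR-151a replicate 2, miR-151a replicate 3 or any 1 miR-NC sample was left out (adjusted p from 0.055 to 0.12), and the count of genes called higher was then 1. Averaged over its 3 probe sets EIF2S2 was at 0.09.

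The ATF4 targets of amino acid supply and stress rose in large part. Of 38 measured genes, the 10 genes above left out, 27 were called higher and 1 lower in limma, with a median of 0.43, beside 7.27% and 8.11% of all genes. The list was drawn up as known targets with results of these samples in view, so its direction is no independent evidence. CTH, an enzyme of cysteine synthesis, read 468, 482 and 444 with miR-151a and 146, 144 and 141 with miR-NC, a log2 difference of 1.69. SLC3A2, the shared heavy chain of several amino acid transporters, rose by 1.48 with all 7 of its probe sets past the threshold. ASNS, which makes asparagine, rose by 1.51, and SLC7A11, the cystine transporter that supplies glutathione synthesis, by 1.31. The largest adjusted p of these 4 genes was 6.3e-06. The gene called lower was ALDH18A1, an enzyme of proline synthesis named after its value was seen, which fell by 0.27; its second probe set was not called.

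The arm of the unfolded protein response that runs through ATF6 and XBP1 did not move as one. Of its 30 genes, 3 were called higher and 7 lower in limma, with a median of -0.07, beside 7.27% and 8.11% of all genes. The genes called higher were the factors XBP1 at 0.54 (adjusted p = 0.00042) and ATF6 at 0.30 (adjusted p = 0.0064) and HERPUD1, a component of protein degradation at the endoplasmic reticulum, at 0.43 (adjusted p = 0.0017). Of the 4 HERPUD1 probe sets 3 were called higher, with differences from 0.10 to 0.43 over all 4. Some genes not called by their brightest probe set had other probe sets that were. Among them, named after their values were seen, EDEM1 had 4 of 5 called higher and DERL1 2 of 3 called lower. HSPA5 had 2 of 6 called higher and 1 lower. Averaged over the probe sets of each gene, 5 genes of the arm were called higher and 10 lower in limma. XBP1 read 1344, 1450.1 and 1371 with miR-151a and 944, 962 and 949.7 with miR-NC, so its groups were well apart. MANF, a secreted protein of the endoplasmic reticulum, was among the genes called lower, at -0.23 (adjusted p = 0.0098). The count of 7 became 3, 5 and 3 without miR-151a replicates 1, 2 and 3, and 3, 2 and 2 without miR-NC replicates 1, 2 and 3, while the 3 called higher stayed at 3 in each. The 1470 genes called lower in all became 915 and 939 without miR-151a replicates 1 and 3 and 829, 822 and 800 without miR-NC replicates 1, 2 and 3.

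Relatives of the 10 genes gave a mixed picture. Of 40 other transcription factors with a basic leucine zipper, the fold that ATF and C/EBP proteins share, 10 were called higher and 3 lower, with a median of 0.06, beside 7.27% and 8.11% of all genes. XBP1 and ATF6 are among these 10 and were already counted in the ATF6 and XBP1 arm. NFIL3, a repressor of that class, was at 0.91 (adjusted p = 7e-05), and MAFF, a small MAF protein, at 0.63 (adjusted p = 0.00041). TEF was at 0.72 by its brighter probe set and at 0.05 by the other, and 0.38 averaged over both. Of 9 paralogues, 1 was called higher and 3 lower, with a median of 0.00. The paralogues and the zipper factors share 4 genes, among them CEBPD, which was called higher and counts in both. TRIB2, the tribbles relative of TRIB3, read 324, 342 and 336 with miR-151a and 457, 452 and 436 with miR-NC, and fell by 0.42 with both of its probe sets past the threshold (adjusted p = 0.0012). TRIB1 was at -0.20, and its call was lost when any 1 miR-151a sample was left out (adjusted p 0.064, 0.061 and 0.053 for replicates 1, 2 and 3), likewise for miR-NC replicates 2 and 3 (0.092 and 0.078), and with all samples when its probe sets were averaged (0.076). CHAC2, the paralogue of CHAC1, fell by 0.22 (adjusted p = 0.014; 0.055 without miR-NC replicate 1), from 224, 217 and 215 to 187, 189 and 188. CEBPD, a C/EBP factor of acute inflammation, rose by 0.38 (adjusted p = 0.0024). Of its 5 probe sets 3 were called higher, with differences from 0.09 to 0.44 over all 5. DDIT4L and NUPR2, the paralogues of DDIT4 and NUPR1, were chosen after their values were seen and did not pass, with 95% intervals from -0.33 to 0.11 and from -0.13 to 0.23.

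**Figure D5:**
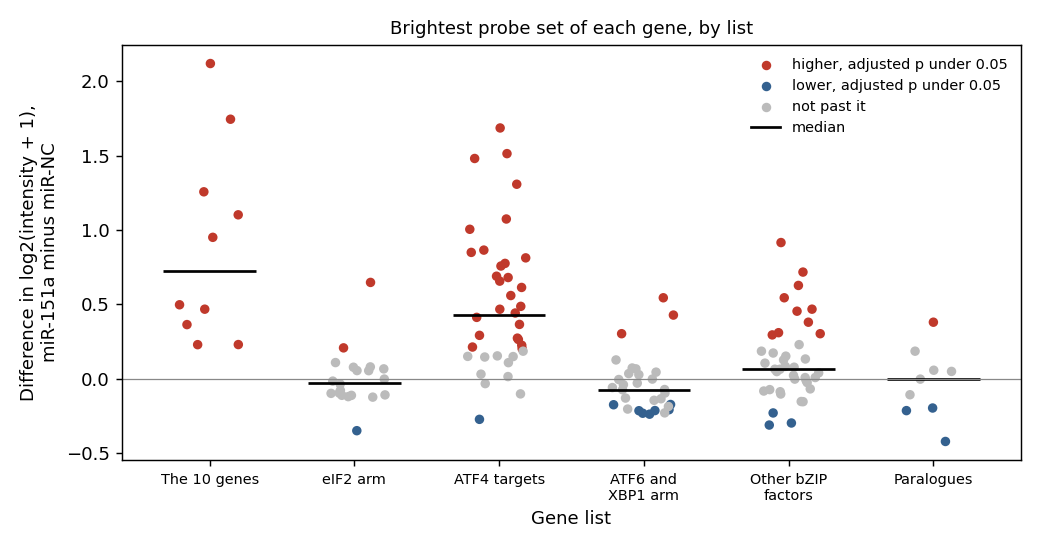
Difference in log2(intensity + 1) between miR-151a and miR-NC (vertical axis) for the brightest probe set of each gene, for the 10 genes and for 5 gene lists; red points passed an adjusted p of 0.05 in limma as higher, blue as lower and grey not, and bars are medians. The medians are 0.72 for the 10 genes, 0.43 for the ATF4 targets and between -0.07 and 0.06 for the other 4 lists. A gene that belongs to several lists is drawn in each of them.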

How the data were processed

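The 6 deposited columns, assigned to groups by sample title, hold linear intensities of probe sets. MAS5 is the tool named in the submitters' processing notes; the sources used here do not describe scaling or background correction. Such scaling would hide a shift shared by most transcripts. Control probe sets (102) were left out. Gene names came from the platform annotation, updated to RefSeq through Entrez identifiers (44961 of the 44988 probe sets naming 1 gene matched), and a gene is represented by its brightest probe set. Groups were compared on log2(intensity + 1), which understates changes of dim probe sets, using limma 3.58.1 (lmFit and eBayes without covariates) in R 4.3.3. Benjamini-Hochberg adjustment covered all 49293 probe sets, or all 18132 genes. The procedure was tested on simulated data. With 3 against 3, an exact permutation test cannot go below p = 0.1. The number of arrays limits the precision. Members and lists were chosen with earlier results of these data known. The text names all member probe sets, up to 4 passing genes per list by smallest p, and the 5 genes nearest to ATF3 and to NUPR1; exceptions are marked. Alternatives tried were quantile normalization, centring on the median, a larger pseudocount (32), dropping probe sets under the 0.25 quantile, a variance trend with robust fit, array weights, a replicate block, averaging probe sets, and leaving out each sample.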

Additional observations from a re-analysis of the deposited data

How the results depend on the processing

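Of the probe set and gene differences named above, 2 changed sign, neither called: EIF2AK4 was at 0.028 with probe sets averaged, and NUPR2 ran from -0.024 (without miR-NC replicate 3) to 0.12 (without miR-NC replicate 1) when 1 sample was left out. Probe sets of the 10 genes called higher numbered 19 to 22 with the whole sample set and 16 to 20 without 1 sample. With a pseudocount of 32, probe sets and genes called lower in all became 5396 and 2218, and those called lower became 13 for the ATF6 and XBP1 arm and 4 for the eIF2 list, with 2 paralogues called higher. With a variance trend and robust fit these were 5856, 2388, 14, 3 and 2. Removing low probe sets gave 12 lower genes of the ATF6 and XBP1 arm, and 2 higher paralogues, as did quantile normalization and array weights for the paralogues. The mean over probe sets gave 1 higher gene of the eIF2 list and 5 of the ATF6 and XBP1 arm. With the replicate number as a block, 2052 probe sets and 822 genes were lower in all, 2 of the ATF6 and XBP1 arm and 1 paralogue were lower, and 1 gene of the eIF2 list was higher. With that block the probe set calls of ATF4 and CEBPB were not made (limma adjusted p 0.055 and 0.070). Fitted over genes, the calls of CEBPB (0.064), EIF2S2 (0.085), CHAC2 (0.055) and TRIB1 (0.064) were not made, while 9 of the 10 genes, ATF4 included, passed. Deviations of same-numbered samples from their group means correlated at -0.08, -0.12 and 0.07 over all probe sets. The 9 pairs across groups ran from -0.12 to 0.13. The labels give only the number, and whether same-numbered samples share a culture or a day was not tested. Without 1 sample, probe sets called higher ran from 2171 to 2689 and lower from 1893 to 2426, genes called lower from 800 to 1021, the ATF6 and XBP1 arm from 2 to 5 lower, and the eIF2 list from 1 to 2 higher. The cause of these shifts was not tested. Of the 23 probe sets, 11763463_a_at of ATF3 was removed by the filter on low values, and signal near the lower quartile of the arrays limits what the dim ATF3 probe sets can show.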

Other observations

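Among the ATF4 targets with a promoter window, 14 of 32 held the composite core TGATGNAA, a share that describes a list drawn up as known targets. In those measured, 9 of 14 genes with the core were called higher and 13 of 17 without it, with median log2 differences of 0.32 and 0.47. Among all measured genes with a window, 56 of 522 with the core (10.7%) were called higher and 29 (5.56%) lower, and of 13903 without it 7.31% were higher and 8.50% lower. The median differences were -0.0052 and -0.01. All measured genes here include the genes of the set and the listed ATF4 targets, both chosen with results of these samples known. With the core, 3 of 3 genes of the set and 9 of 14 listed targets were called higher and count among the 56. Without it, 6 of 6 and 13 of 17 were called higher and count in the 7.31%. Whether the shares differ with these genes left out was not tested, so the 10.7% is no independent evidence for the core. The core was present at CHAC1, CEBPG and ATF3, which were higher by 0.95, 0.47 and 2.12, and not found in the windows of TRIB3 or DDIT3, which were higher by 1.26 and 1.10; the windows cover only 300 bases.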
